A study of Mus musculus with 6 samples.

Results

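Astrocytes are the star-shaped glia of the central nervous system, and 10 of the genes by which they are known were followed here: Agt, Itih3, Aldh1l1, Aldoc, Ppp1r3c, Ntsr2, Gpc5, Mlc1, Slc4a4 and Slc7a10. They were picked outside the filament, transporter and channel families that are the usual markers, although Slc4a4 and Slc7a10 are themselves membrane carriers, and they were taken as every probe set whose platform annotation names a single gene on this list. All 10 genes were measured, by 17 of the 45032 probe sets tested, and they are 10 of the 18192 genes with a value. The tissues compared were the dorsal root ganglia (DRG) and the spinal cord (SC), both lumbar, from C57BL/6J males at 3 months of age, with 3 arrays for DRG and 3 for SC, and the labels name no treatment. Each DRG array carried total RNA from left and right ganglia of segments L1 to L6, each SC array carried total RNA from lumbar cord, and every array held a pool of 4 mice. Pools of a tissue are described as independent, so the error of every value is the spread between pools and not between single mice.

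Astrocytes take up glutamate and potassium released by neurons, supply them with metabolites, store glycogen and wrap blood vessels with endfeet that carry water and ion channels. In the spinal cord they occur in grey and white matter. A dorsal root ganglion lies outside the central nervous system and holds the cell bodies of sensory neurons, wrapped by satellite glia, with Schwann cells along the axons. Satellite glia share several genes with astrocytes. In bulk tissue, fewer cells of a type and less RNA per cell cannot be told apart.

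The promoters of the 6 genes with the largest tissue differences are shown, since they are the sequences from which the most unevenly expressed members start. Each window holds the 250 bases before the start of the gene, 5′ to 3′ on the strand of the gene, from RefSeq on mouse build GRCm38.p6. Capitals mark matches, on either strand, to the motifs searched, which were the nuclear factor I half-site (TTGGC or GCCAA), its full palindrome (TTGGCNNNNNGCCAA), the SOX core (ACAAT or ATTGT), the STAT palindrome (TTCNNNGAA), the CCAAT box (CCAAT or ATTGG) and the TATA box (TATAAA or TTTATA). The half-site lies within the full palindrome, and GCCAAT would be a match to both the half-site and the CCAAT box. The windows lie at chr14:30923588-30923837 for Itih3, chr8:124569707-124569956 for Agt, chr12:16653220-16653469 for Ntsr2, chr7:35186135-35186384 for Slc7a10, chr19:36736605-36736854 for Ppp1r3c and chr15:88978554-88978803 for Mlc1. Ntsr2 and Slc7a10 are on the plus strand and the other 4 on the minus strand.
Itih3: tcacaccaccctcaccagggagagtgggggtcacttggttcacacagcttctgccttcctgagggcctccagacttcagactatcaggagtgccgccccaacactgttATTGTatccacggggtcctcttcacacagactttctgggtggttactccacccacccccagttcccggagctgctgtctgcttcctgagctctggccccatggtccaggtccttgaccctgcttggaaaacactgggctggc
Agt: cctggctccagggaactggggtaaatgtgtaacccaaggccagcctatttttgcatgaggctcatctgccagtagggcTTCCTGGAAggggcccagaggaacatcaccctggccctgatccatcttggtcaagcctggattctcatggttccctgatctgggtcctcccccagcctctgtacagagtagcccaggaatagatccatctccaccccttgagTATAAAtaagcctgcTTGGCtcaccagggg
Ntsr2: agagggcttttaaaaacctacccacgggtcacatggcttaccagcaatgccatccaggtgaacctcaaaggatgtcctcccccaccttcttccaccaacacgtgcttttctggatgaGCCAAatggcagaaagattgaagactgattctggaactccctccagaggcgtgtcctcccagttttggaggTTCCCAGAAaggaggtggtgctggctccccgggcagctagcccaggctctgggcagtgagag
Slc7a10: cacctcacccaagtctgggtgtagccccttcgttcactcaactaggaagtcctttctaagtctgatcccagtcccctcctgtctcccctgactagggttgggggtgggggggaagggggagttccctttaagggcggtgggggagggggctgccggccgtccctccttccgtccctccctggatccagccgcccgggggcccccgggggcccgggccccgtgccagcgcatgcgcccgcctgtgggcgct
Ppp1r3c: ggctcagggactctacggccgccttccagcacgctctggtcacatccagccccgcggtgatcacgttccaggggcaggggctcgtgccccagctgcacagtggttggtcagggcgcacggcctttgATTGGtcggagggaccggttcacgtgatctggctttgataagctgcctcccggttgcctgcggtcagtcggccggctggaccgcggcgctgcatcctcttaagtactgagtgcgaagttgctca
Mlc1: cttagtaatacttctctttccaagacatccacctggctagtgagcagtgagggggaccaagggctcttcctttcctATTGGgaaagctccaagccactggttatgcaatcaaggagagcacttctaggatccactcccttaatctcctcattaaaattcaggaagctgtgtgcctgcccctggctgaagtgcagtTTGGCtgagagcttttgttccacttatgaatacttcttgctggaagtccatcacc

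No motif was common to the 6 windows. Agt held a TATA box beginning 30 bases before the start, a half-site at 15 bases and a STAT palindrome at 172 bases. Ntsr2 also held a half-site, at 133 bases, and a STAT palindrome, at 62 bases. Mlc1 had a half-site at 55 bases and a CCAAT box at 174 bases, Ppp1r3c a CCAAT box at 124 bases and Itih3 a SOX core at 142 bases. The Slc7a10 window, with a GC content of 69.6%, held none of these letters. The 10 genes have 12 windows, and shares are given per window. The half-site was found in 6 of the 12, from 5 genes (Agt, Aldoc, Mlc1, Ntsr2 and Slc4a4), and in 41.5% of all 32851 windows of mouse genes. STAT palindromes were found in 3 of the 12, from 3 genes (Agt, Aldoc and Ntsr2), and in 7.02% of all windows. A CCAAT box was found in 4 of the 12 and in 33.8% of all windows, and a SOX core in 2 and in 27.7%. A TATA box was found in 2 of the 12 and in 12.4% of all windows, and the full palindrome in 0 and in 0.0365%. These matches are letters in a window and were not tested as sites.

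Values are array signals in arbitrary units, rebuilt from the deposited ratios. A difference is DRG minus SC on log2(signal + 16), so a negative value means lower in DRG, and it counts as changed where limma's adjusted p over all probe sets is under 0.05. Signals of different probe sets are not compared as levels, because probes differ in brightness. To judge when a signal is low, 69 probe sets of 48 genes not expected in either tissue were used. Their highest signal was 130 to 153 on the DRG arrays and 130 to 165 on the SC arrays, and where a gene did not exceed it on 1 or more arrays of its dimmer tissue, those arrays were set to it and the fold is written as a bound. Of these 48 genes, 0 were lower in DRG and 2 higher (Csn1s1 by 1.58 and Lct by 1.11), so a change can be called under this level. Arrays of a tissue correlated at 0.966 to 0.97 over all probe sets, and arrays of different tissues at 0.891 to 0.897. Sensory neuron markers were higher in DRG for 9 of 9 genes measured, and 6 of 8 genes listed for central neurons were lower in DRG, as the tissue labels state. The other 2 genes of that list, Slc17a6 and Syt1, were higher in DRG. Both exceeded the level on all arrays of both tissues, so they do not mark central neurons in these data. Over all probe sets, 9.79% were lower in DRG and 22.7% higher. This split follows the array scaling, since 30.2% of the called probe sets were lower in DRG as deposited, 49% after quantile normalization and 59.9% before the authors' array scaling.

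All 10 genes were lower in DRG on their brightest probe set, each by more than 2-fold on the log2(signal + 16) scale. The brightest is the probe set with the highest mean over all 6 arrays. With probe sets averaged, all 10 were still lower, but Aldh1l1 (-0.67) and Slc4a4 (-0.61) by less than 2-fold. Among all genes, 9.7% were lower in DRG, 31.8% higher, and 4.77% lower by at least 2-fold. The 10 genes were chosen with earlier results of these data known, so these shares are no test of them. The differences ran between -5.83 for Itih3 and -1.13 for Slc4a4, with a median of -2.95, against a median of 0.18 over all genes. Of the 17 probe sets, 14 were lower in DRG, 0 were higher and 3 did not pass the test. The same 14 had every DRG array below every SC array, a separation in this direction that 15.1% of all probe sets showed. On every SC array, each of the 10 genes exceeded the level of genes not expected. In DRG, 6 of them (Agt, Itih3, Slc7a10, Ppp1r3c, Mlc1 and Gpc5) did not exceed it on any array, Ntsr2 and Aldh1l1 exceeded it on some arrays, and Aldoc and Slc4a4 exceeded it on all 3.

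**Figure D1:**
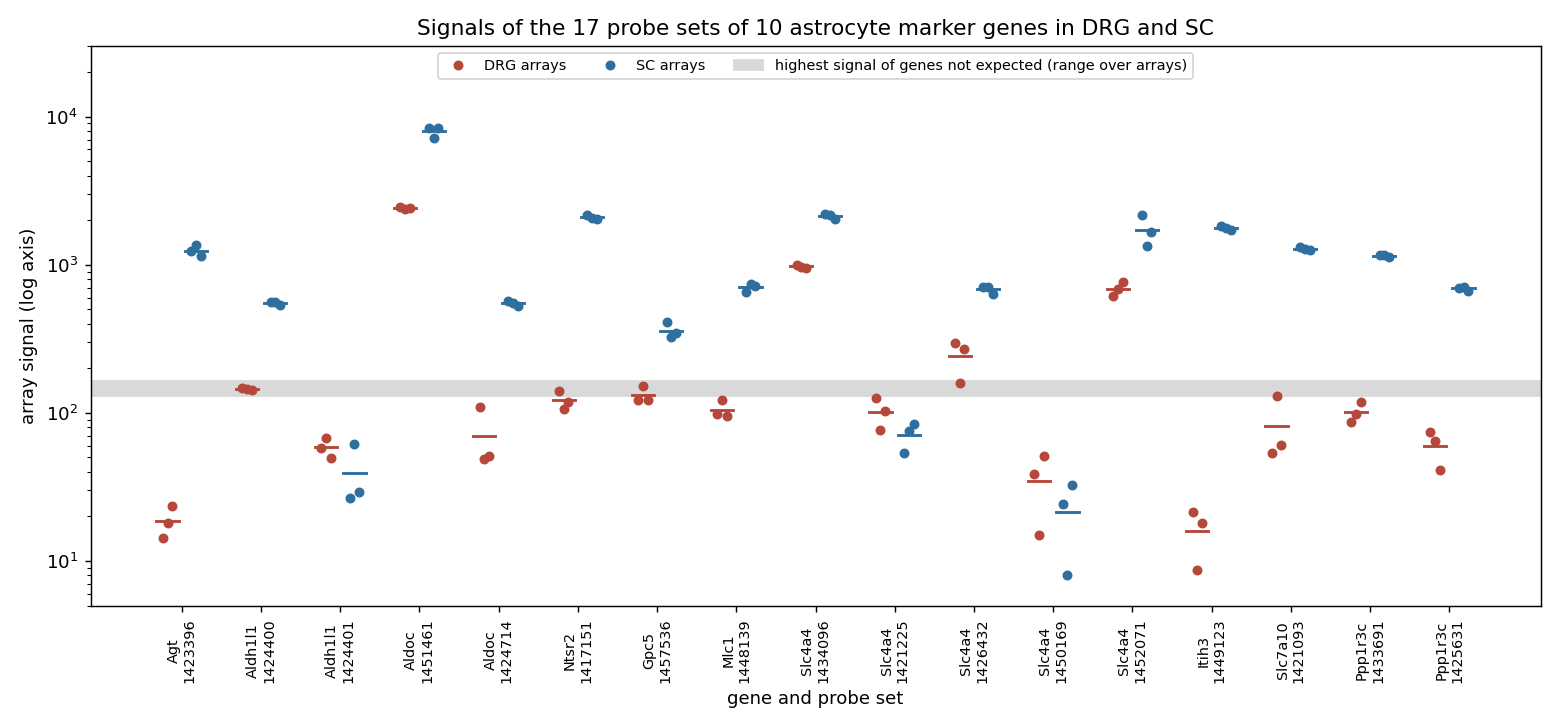
Signals of the 17 probe sets of the 10 genes, on a log axis, with DRG arrays left and SC arrays right for each probe set; points are single arrays, short bars the tissue means, and the grey band the range over arrays of the highest signal among genes not expected. SC points lie above the band for 14 probe sets, while DRG points lie clearly above it only for Aldoc 1451461 and for Slc4a4 1434096, 1452071 and, on 2 of 3 arrays, 1426432.

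Agt encodes angiotensinogen, the secreted precursor of the angiotensin peptides, which the liver releases into blood and which astrocytes make within the brain. Its probe set 1423396_at read 14.3, 18.0 and 23.5 on the DRG arrays, against 1232, 1354 and 1143 on the SC arrays. The DRG signals were far under the level of genes not expected and the tissues did not overlap. The difference was -5.19 (SE 0.14, limma adjusted p = 1.95e-08), which is at least 8.93-fold lower in DRG. The rest of the angiotensin system did not share this direction, with 9 of 13 measured genes higher in DRG and 1 lower, and a median of 0.81 that stayed positive under both other scalings (0.58 and 0.44). Agtr1a, the type 1a angiotensin receptor, averaged 496 ± 43.7 in DRG and 60.7 ± 12.1 in SC (SD, n = 3 each, as for all means that follow), which is at least 3.26-fold higher in DRG (difference 2.75, limma adjusted p = 1.16e-06). Agtrap, which binds that receptor, was also at least 1.34-fold higher in DRG (difference 2.09, limma adjusted p = 0.000798). For Ace, which converts angiotensin I, the difference of -0.07 was within the spread (95% interval -0.50 to 0.36). Agtr2, the receptor that was lower in DRG, stood under the level in both tissues, and its call did not hold under quantile normalization (adjusted p = 0.0511).

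Itih3 encodes a heavy chain of inter-alpha-trypsin inhibitor, a secreted protein that is attached to hyaluronan in the extracellular matrix. DRG signals were 21.3, 8.74 and 18.1, the second of which is an upper bound because the deposited ratio stood at its lowest value, against 1832, 1775 and 1726 in SC. This was the widest separation of the 10 genes. The difference was -5.83 (SE 0.16, limma adjusted p = 1.9e-08), at least 12.8-fold lower in DRG. Other heavy chains and hyaluronan genes went both ways, with 6 of 20 lower in DRG, 3 higher and a median of -0.14. Itih5, a further heavy chain, was higher in DRG by 0.86 (limma adjusted p = 0.000124). Tnfaip6, the enzyme that transfers heavy chains onto hyaluronan, averaged 39.9 ± 13.3 in DRG and 308 ± 43.8 in SC, a value at least 2.2-fold lower in DRG (difference -2.55, limma adjusted p = 1.41e-05). Hapln2, a link protein of hyaluronan matrices at nodes of Ranvier, was at least 7.78-fold lower in DRG, while Cd44, the cell-surface hyaluronan receptor, had an at least 15.9-fold higher signal in DRG.

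Aldh1l1 encodes cytosolic 10-formyltetrahydrofolate dehydrogenase, an enzyme of folate metabolism whose promoter is widely used to drive reporters in astrocytes. Probe set 1424400_a_at gave 147, 145.4 and 142.2 in DRG, against 561.8, 560.9 and 530.8 in SC. The 3 DRG arrays were nearly alike and sat close to the level of genes not expected, which 2 of them exceeded. The difference was -1.82 (SE 0.09, limma adjusted p = 6.55e-07), at least 3.74-fold lower in DRG. The second probe set, 1424401_at, was under the level on all 6 arrays, at 49.6 to 67.9 in DRG and 26.5 to 61.5 in SC. It showed no difference beyond the spread (0.48, 95% interval -0.19 to 1.16), and with both probe sets averaged the gene's difference shrank to -0.67. Among 19 other folate enzymes, 1 was lower in DRG and 6 were higher, with a median of 0.01, and the balance turned with the scaling to 5 lower and 2 higher before the authors' array scaling. The mitochondrial relative Aldh1l2 differed by -0.34 (limma adjusted p = 0.152), a difference that passed the test before the array scaling (-0.68) and without DRG array 2 (-0.48). Shmt1, cytosolic serine hydroxymethyltransferase, was the enzyme that was lower in DRG, by -1.63 on its brightest probe set (limma adjusted p = 0.000178) but by -0.39 with its 4 probe sets averaged, which did not pass (adjusted p = 0.139).

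Aldoc encodes aldolase C, the brain isozyme of the glycolytic enzyme that splits fructose 1,6-bisphosphate. Its probe set 1451461_a_at read 2439, 2379 and 2411 in DRG, against 8393, 7117 and 8350 in SC. The signal was 3.29-fold lower in DRG (difference -1.71, SE 0.08, limma adjusted p = 4.46e-07), and both tissues were far above that of genes not expected. On 1424714_at, DRG arrays read 109.5, 48.5 and 51.5, against 571, 554 and 529.5 in SC. There the DRG signals fell under the level, and the difference was -2.80 (SE 0.24), at least 3.97-fold lower in DRG. The probe sets thus gave the same direction, with differences 1.08 apart. Aldoa, the aldolase of muscle and most tissues, went the other way, averaging 9466 ± 302 in DRG and 5053 ± 315 in SC (difference 0.90, limma adjusted p = 1.8e-05), and it stayed higher in DRG by 0.41 with quantile normalization and by 0.53 on signals before the array scaling. Ldha, lactate dehydrogenase A, was 5.2-fold higher in DRG. As a group, aldolases and lower glycolysis had no direction that held, with 6 of 12 genes higher in DRG and 1 lower as deposited but 2 higher and 3 lower after quantile normalization.

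Ppp1r3c encodes a targeting subunit that brings protein phosphatase 1 to glycogen and so favours glycogen synthesis. Its probe set 1433691_at read 86.4, 98.0 and 119.2 in DRG, against 1163, 1156 and 1125 in SC. The other probe set, 1425631_at, read 74.1, 64.6 and 41 in DRG, against 698.7, 711.6 and 663.9 in SC. On both, every DRG array was under the level of genes not expected and every SC array well above it. The differences were -3.32 (SE 0.11, limma adjusted p = 6.13e-08) and -3.25 (SE 0.17, limma adjusted p = 7.8e-07), at least 8.27-fold and at least 4.98-fold lower in DRG.

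Other glycogen genes did not follow Ppp1r3c as a group. Of 28 measured, 4 were lower in DRG and 13 higher as deposited, with a median of 0.27, and 6 were lower and 8 higher under each of the other scalings. Gys1, the glycogen synthase of non-liver tissues, had an at least 2.47-fold higher signal in DRG, and Gyg, the glycogenin that primes the polymer, was 5.72-fold higher. Stbd1, a glycogen-binding protein, averaged 1065 ± 103 in DRG and 61.4 ± 10.3 in SC, which is at least 6.99-fold higher in DRG. The glycogen phosphorylases split by isozyme. Pygb, the brain form, averaged 5225 ± 592 in DRG and 2114 ± 80.5 in SC, 2.46-fold higher in DRG, whereas Pygm, the muscle form, averaged 88.3 ± 17.6 in DRG and 950 ± 43.9 in SC, or at least 6.84-fold lower in DRG. Among the other targeting subunits, Ppp1r3d did not differ beyond the spread (0.05, 95% interval -0.48 to 0.57), and Ppp1r3b (difference 2.10) and Ppp1r3g (-1.12) stood under the level in both tissues.

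Ntsr2 encodes the low-affinity neurotensin receptor, a G protein-coupled receptor. It read 140.7, 106.5 and 119.1 in DRG, against 2153, 2067 and 2038 in SC. The first DRG array was just over the level of genes not expected and the other two were under it, while the 3 SC arrays lay within a narrow range. The difference was -3.94 (SE 0.10, limma adjusted p = 1.34e-08), at least 14.6-fold lower in DRG. Other genes of the neurotensin system gave 1 lower and 1 higher in DRG of 3. Sort1, the sorting receptor that also binds neurotensin, was 2.68-fold lower in DRG (404 ± 18.5 in DRG and 1082 ± 56.9 in SC). Nts, the neurotensin precursor, was higher in DRG by 0.69 (753 ± 94.6 in DRG and 457 ± 3.9 in SC, limma adjusted p = 0.000425), which did not pass after quantile normalization (0.31, adjusted p = 0.0552). Ntsr1, the high-affinity receptor, was under the level in both tissues and did not pass the test (-0.91, limma adjusted p = 0.061), though it passed before the array scaling (-1.15) and without DRG array 1 (-1.23).

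Gpc5 encodes a glypican, a heparan sulphate proteoglycan anchored to the cell surface by a lipid. Its probe set 1457536_at read 121.5, 151.6 and 122.3 in DRG, against 408.6, 322.9 and 344.8 in SC. No DRG array exceeded its level of genes not expected. The difference was -1.34 (SE 0.14, limma adjusted p = 5.58e-05), at least 2.57-fold lower in DRG. Of the other 5 glypicans measured, 3 were higher in DRG and 1 lower under all 3 scalings. Gpc6, whose gene neighbours Gpc5 in the genome, averaged 363 ± 14.8 in DRG and 207 ± 11.1 in SC, 1.75-fold higher in DRG (difference 0.76, limma adjusted p = 0.000258). Gpc1 was 2.28-fold and Gpc3, the glypican nearest to Gpc5 in sequence, at least 2.41-fold higher in DRG, whereas Gpc2 (-0.89) stood under the level in both tissues and lost its call without DRG array 2 or without SC array 1 (differences -0.79 and -0.82).

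Mlc1 encodes a membrane protein of astrocyte endfeet, whose loss in humans causes megalencephalic leukoencephalopathy with subcortical cysts. DRG arrays read 99.0, 121.3 and 95.3, against 650.3, 741.9 and 722.8 in SC. All DRG signals were under the level of genes not expected, and the difference was -2.58 (SE 0.12, limma adjusted p = 3.19e-07), at least 5.07-fold lower in DRG. Of the genes listed as its partners or endfoot neighbours, 7 of 13 were lower in DRG and 4 higher as deposited. Under each of the other scalings, 8 were lower and 2 higher. Hepacam, the adhesion molecule that carries Mlc1 to cell junctions, averaged 250 ± 42.2 in DRG and 969 ± 108 in SC, 3.9-fold lower in DRG (difference -1.90, limma adjusted p = 4.75e-06). Unlike Mlc1, it was above the level on every DRG array. Aqp4, the endfoot water channel, was at least 21.8-fold lower in DRG and Gja1, the gap junction protein connexin 43, 5.87-fold lower. Gpr37, a G protein-coupled receptor also on this list, was 6.87-fold lower, and which cells carried its signal was not tested. Cav1, caveolin 1, and Dag1, dystroglycan, were higher in DRG by 1.94 and 0.95.

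Slc4a4 encodes the electrogenic sodium bicarbonate cotransporter, through which astrocytes move bicarbonate across their membrane. It showed the smallest difference of the 10 genes and clear DRG signals, with 999.6, 969.9 and 952.7 in DRG on 1434096_at, against 2213, 2180 and 2047 in SC. The difference was -1.13 (SE 0.07, limma adjusted p = 1.49e-06), 2.2-fold lower in DRG. Its 5 probe sets differed among themselves. Probe set 1452071_at read 619.5, 681.2 and 760.7 in DRG, against 2165, 1336 and 1668 in SC, 2.47-fold lower in DRG (difference -1.28, limma adjusted p = 0.00017). Probe set 1426432_a_at read 297.3, 159.6 and 269.4 in DRG, against 710.6, 702.1 and 634.3 in SC, 2.91-fold lower in DRG (difference -1.48, limma adjusted p = 0.00026). These 3 probe sets separated the tissues without overlap. The remaining 1421225_a_at and 1450169_at were under the level on all arrays, with differences of 0.43 (95% interval -0.12 to 0.99) and 0.42 (-0.41 to 1.26) that did not pass, and with all 5 averaged the gene's difference was -0.61. Within the bicarbonate transporter family, 3 of 8 other genes were lower in DRG and 1 higher. Slc4a10, the sodium bicarbonate transporter of neurons, was 2.58-fold lower in DRG and Slc4a8, its sodium-driven chloride-exchanging relative, at least 1.93-fold lower, whereas the family member Slc4a11 was 3.47-fold higher in DRG. Slc4a3, an anion exchanger, was 2.42-fold lower on its brightest probe set and did not pass with its probe sets averaged (-0.41). Slc4a7, the electroneutral sodium bicarbonate cotransporter, was not analysed here.

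Slc7a10 encodes Asc-1, a carrier of small neutral amino acids that also transports D-serine and pairs with the heavy chain Slc3a2. DRG arrays read 54.0, 130.8 and 60.4, against 1325, 1279 and 1253 in SC. The second DRG array was higher than the other two and close under its level of 153, and none of the 3 exceeded the level of its array. The difference was -3.82 (SE 0.24, limma adjusted p = 2.36e-06), at least 9.26-fold lower in DRG. Slc3a2, the shared heavy chain, was higher in DRG by 0.36 as deposited (1589 ± 145 in DRG and 1233 ± 71.2 in SC, limma adjusted p = 0.00884), but its sign turned with quantile normalization (-0.19) and on signals before the array scaling (-0.01). Of 15 other Slc7 carriers and their heavy chains, 2 were lower in DRG and 7 higher as deposited, and 3 were lower and 4 higher under each of the other scalings. Slc7a7, which exports cationic amino acids, averaged 1352 ± 75.7 in DRG and 51.2 ± 27.1 in SC, or at least 8.89-fold higher in DRG. Slc7a11, the cystine-glutamate exchanger, was under the level in both tissues (difference -0.97, limma adjusted p = 0.0236), and it kept its call only without DRG array 2 when arrays were left out in turn. Of 12 genes of serine and glycine metabolism, 5 were lower in DRG and 3 higher as deposited, and 5 lower and 1 higher under each of the other scalings. Dao, the enzyme that degrades D-serine, was at least 2.33-fold lower in DRG, and Slc6a9, the glycine transporter GlyT1 of astrocytes, was 5.66-fold lower (360 ± 38.5 in DRG and 2034 ± 155 in SC). Srr, which makes D-serine, differed by -0.04 (95% interval -0.46 to 0.37).

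**Figure D2:**
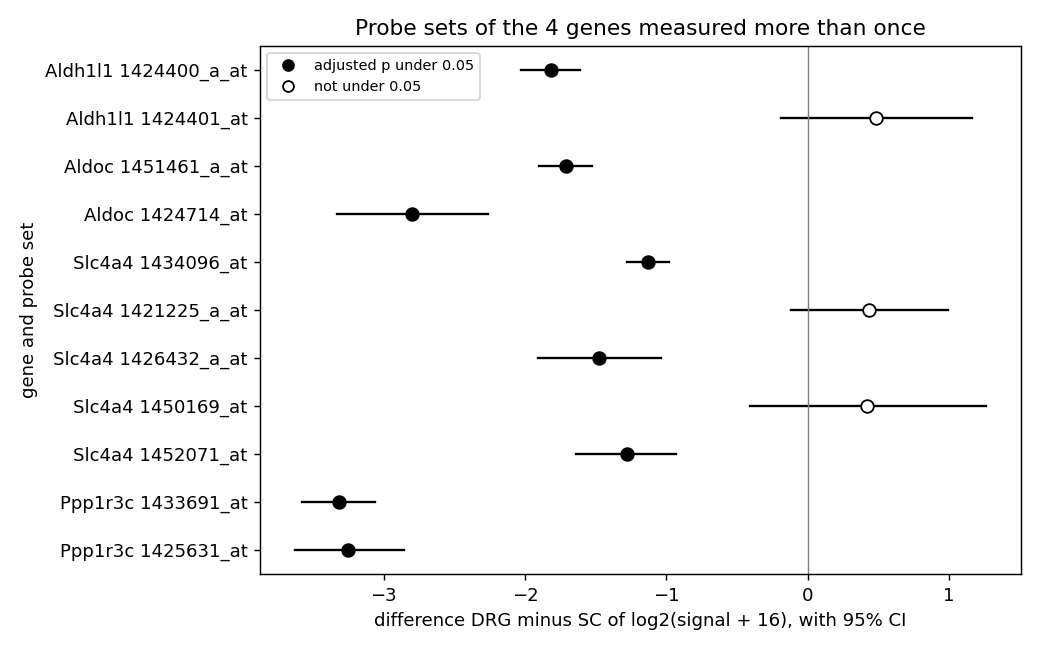
Differences DRG minus SC of log2(signal + 16), with 95% intervals, for the 11 probe sets of the 4 genes measured more than once; filled points have an adjusted p under 0.05. Both probe sets of Aldoc and Ppp1r3c lie left of 0, while 1 of 2 for Aldh1l1 and 2 of 5 for Slc4a4, all under the level of genes not expected, lie right of 0 with intervals that include it.

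Array scaling moved the sizes of the differences and not their direction. After quantile normalization the median of the 10 genes was -3.21, against 0.04 for all genes, and before the authors' array scaling it was -3.29, against -0.10. Each gene's call held under both. The plot of the 3 scalings shows that both alternatives lie further from 0 than the deposited scaling for each gene, the direction in which the median of all genes moved. Slc4a4 reached -1.67 and Aldoc -2.23 after quantile normalization, which set them past Gpc5 and Aldh1l1 in the order of differences.

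**Figure D3:**
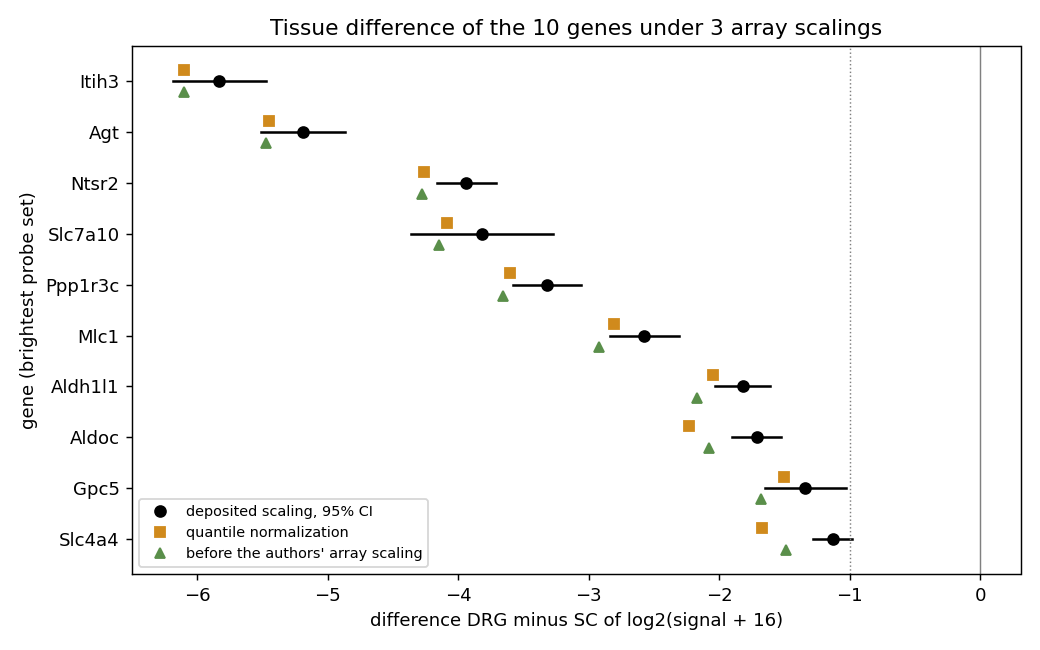
Difference DRG minus SC of log2(signal + 16) of the 10 genes on their brightest probe set; black points with lines are the deposited scaling with 95% intervals, squares quantile normalization and triangles signals before the authors' array scaling, and the dotted line marks a 2-fold lower signal in DRG. All points lie at or below -1.13, and the genes run down the page in order of difference.

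Spread between pools was small next to the tissue differences. Over the brightest probe sets, the coefficient of variation was 1.24% to 52.1% in DRG and 1.74% to 12.4% in SC. The widest spread in DRG was that of Slc7a10 and the narrowest that of Aldoc. In SC, Gpc5 varied most and Ppp1r3c least.

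Other astrocyte genes went both ways. Of 41 measured, 28 were lower in DRG, 6 higher and 7 did not pass, with a median of -1.56, and the counts were 33 lower and 3 higher after quantile normalization. The largest differences were those of Gfap, the astrocyte intermediate filament, and Slc1a2, the glutamate transporter GLT-1. Gfap averaged 90.4 ± 26.4 in DRG and 6568 ± 602 in SC, which is at least 47.2-fold lower in DRG, and Slc1a2 averaged 100 ± 23.2 in DRG and 6457 ± 443 in SC, or at least 46.4-fold lower. The zinc transporter Slc39a12 was at least 8.69-fold lower. Genes higher in DRG included Vim, the intermediate filament vimentin that is also found in fibroblasts and Schwann cells, at 6297 ± 14.9 in DRG and 854 ± 41.3 in SC, and Id3, an inhibitor of transcription factors, at 2.55-fold. In DRG, 13 of the 41 genes did not exceed the level of genes not expected on any array. Of these 41, 7 genes also stand on other lists used here, among them Kcnj10, Glul and Hepacam, which are satellite glia genes too.

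**Figure D4:**
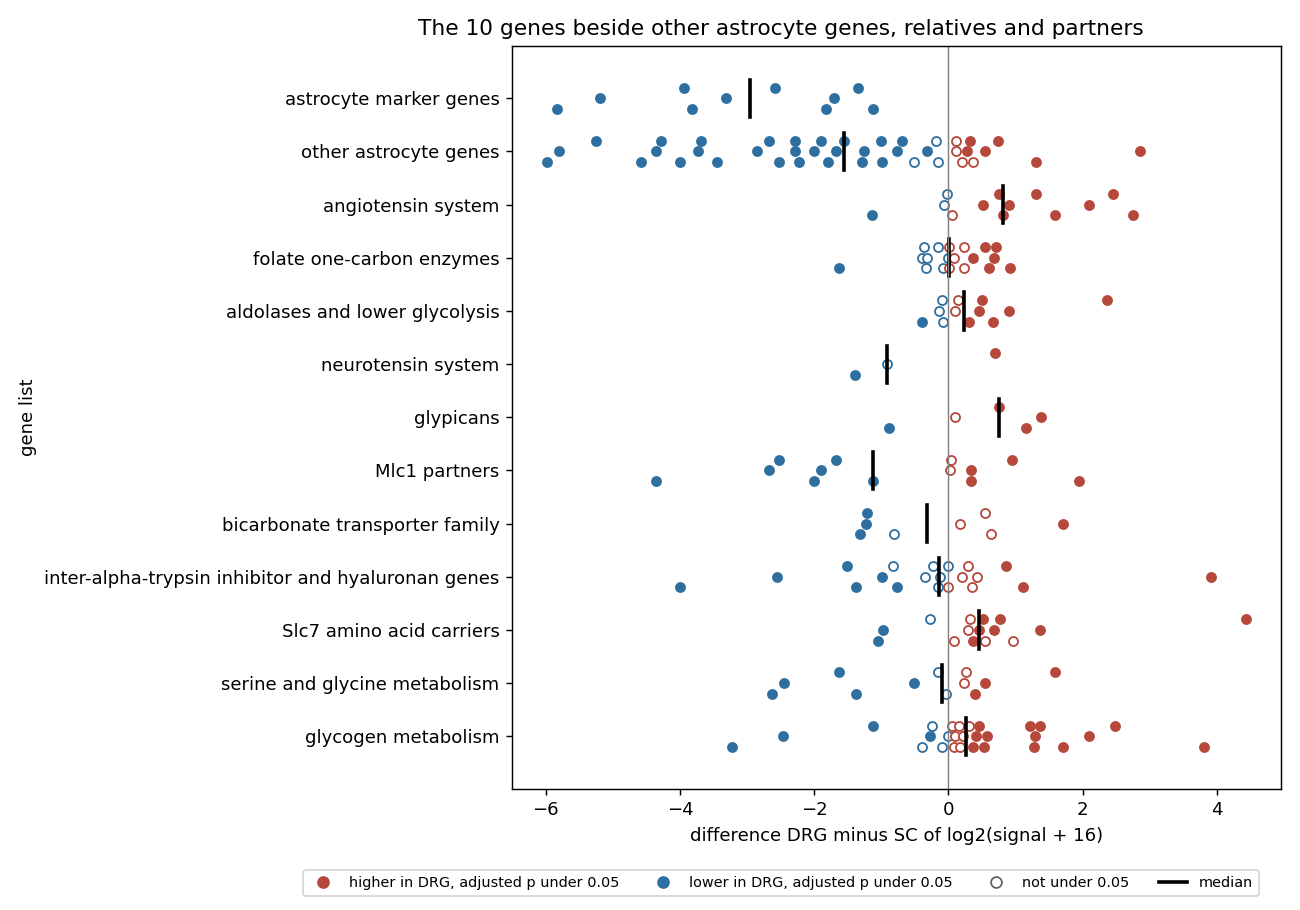
Differences DRG minus SC of log2(signal + 16) for the 10 astrocyte marker genes, 41 other astrocyte genes and the lists of relatives and partners; each point is a gene on its brightest probe set, red to the right of 0 and blue to the left, filled where the adjusted p is under 0.05, with a black bar at each list's median. The 10 genes all lie left of 0 (median -2.95), the other astrocyte genes spread to both sides (median -1.56), and angiotensin, glypican and Slc7 genes centre right of 0 (medians 0.81, 0.76 and 0.46).

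Markers of other cell types moved between the tissues as well. The summed signal of the 10 genes was 4064 to 4129 on the DRG arrays and 18554 to 19931 on the SC arrays. Bright probe sets dominate such sums, here and for the lists below, so the sums are not amounts of a cell type. Aldoc alone averaged 2410 ± 30 in DRG and 7953 ± 725 in SC. Oligodendrocyte markers were lower in DRG for 12 of 12 genes, with sums of 12070 to 12676 in DRG and 30871 to 35267 in SC, and 5 of the 12, Olig1, Olig2 and Ermn among them, did not exceed the level on any DRG array. Microglia markers were lower in DRG for 7 of 9 genes, with sums of 1982 to 2069 in DRG and 3324 to 3640 in SC. Genes listed for central neurons were lower in DRG for 6 of 8 and higher for 2, with sums of 7099 to 7544 in DRG and 14761 to 15418 in SC. The 2 higher genes carried most of the DRG sum, with Slc17a6 at 3553 ± 172 and Syt1 at 3558 ± 163. The other 6 did not exceed the level on any DRG array. Schwann cell markers, in contrast, were higher in DRG for 8 of 9 genes, with sums of 23877 to 24717 in DRG and 7366 to 8485 in SC. The remaining gene, Mal, was lower in DRG (difference -1.68, limma adjusted p = 3.03e-07). Fibroblast and meninges markers were higher in DRG for 9 of 12, with sums of 24611 to 26189 in DRG and 9738 to 11512 in SC. The part of these cell types in the differences of the 10 genes was not tested.

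Satellite glia markers, the nearest ganglion counterpart of astrocyte genes, divided into 3 lower and 4 higher in DRG of 11, with sums of 19125 to 22903 in DRG and 16758 to 18245 in SC, and into 4 lower and 2 higher before the array scaling. Fabp7, a fatty acid-binding protein of satellite glia, was 7.29-fold higher in DRG, while Kcnj10, the potassium channel Kir4.1, was 4.12-fold lower and Glul, glutamine synthetase, 1.99-fold lower. Agt and Itih3 are also made by liver cells, and Agt by fat. Of 11 hepatocyte markers, 10 did not exceed the level of genes not expected on any SC array, and 9 did not on any DRG array. As deposited, 3 were higher in DRG and 0 lower, with sums of 561 to 735 in DRG and 411 to 669 in SC. Of 5 adipocyte markers, 3 did not exceed the level on any SC array, and 2 did not on any DRG array. Under all 3 scalings, 3 were higher in DRG and 0 lower, with sums of 942 to 1116 in DRG and 387 to 503 in SC. The part of liver or fat cells in the Agt and Itih3 signals was not tested. Endothelial markers went 3 lower and 4 higher in DRG of 10 as deposited, 3 lower and 2 higher after quantile normalization and 4 lower and 0 higher before the array scaling (sums 2425 to 2727 in DRG and 2881 to 3054 in SC). Ependymal markers went 2 lower and 0 higher of 9 (sums 592 to 847 in DRG and 912 to 1059 in SC). Of the 9, 7 did not exceed the level on any array of either tissue, the 2 lower genes, Ccdc153 and Tmem212, among them.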

How the data were processed

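Total RNA of 3 DRG and 3 SC pools was measured on 3' expression arrays. The submitters' processing notes name MAS5 for the signals. The deposited values were linear ratios, which the values show to be a signal over an array factor and over a divisor of the probe set. In 91.78% of probe sets the median ratio was 1, so the divisor was the median of the 6 signals. In 8.206% the median ratio was under 1, and the divisor was taken as a fixed minimum. Because MAS5 writes steps of 0.1, signals were recovered for 45096 of 45101 probe sets. On 6000 simulated probe sets, 98.5% came back exactly, 1.5% differed by a common factor and 0% were wrong in another way. A common factor changes the levels of a probe set but not the ratios between its arrays. The simulated sets were built with the same step, factors and floor. They therefore test the search and not whether the deposit has this form. The authors' array scaling was kept. Platform annotation named 1 gene for 34945 probe sets, several for 932 and none for 9160, beside 64 controls.

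Differences were fitted with limma 3.58.1 in R 4.3.3 (lmFit, eBayes with an intensity trend, two-sided) over 45032 probe sets, with Benjamini-Hochberg adjustment and a threshold of 0.05. The pseudocount of 16 understates the change of dim genes. Each gene is represented by its brightest probe set. P-values measure the spread between pools, and the number of arrays limits precision.

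The 10 genes and all lists were chosen with earlier results of these data known. Relatives could be named if fixed as partners or if among the 3 largest changes of their list in either direction, and a selection is printed. The level of genes not expected was chosen after seeing the data. Alternatives covered the pseudocount (1 and 64), the log2 of the deposited ratio, array scaling, filters on probe sets, gene summaries, the trend, a replicate block and leaving out each array.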

Additional observations from a re-analysis of the deposited data

How the results depend on the processing

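For the 17 probe sets of the 10 genes, all 267 values under the alternatives kept their direction and their side of the threshold. The count lower in DRG was 14 throughout, including with each array left out in turn (14 to 14), except 10 with multi-transcript probe sets left out, which drops 4 of them and leaves 7 genes on their brightest probe set. Same-numbered arrays of the tissues did not deviate together (correlations -0.00995, -0.021 and 0.00344). This cannot show whether same-numbered pools came from the same mice, which the labels do not say. With the replicate block, 14 of the 17 were called, 28 other astrocyte genes were lower in DRG and 14150 probe sets were called in all, against 14613 without it, and among the named relatives only Cyp4f15 and Slc3a1 lost their call. Leaving out arrays gave 12603 to 14258 calls in all. Across all settings, Agt lay between -6.09 and -3.98, Itih3 between -6.89 and -4.53 and Slc4a4 between -1.67 and -0.61. An alternative level, chosen after seeing the data, was the 95th percentile of genes not expected. The folds lower in DRG became at least 12.6 for Agt and at least 18.1 for Itih3. On the signals as measured, they were 17.1 for Slc7a10, 11.4 for Ppp1r3c and 6.73 for Mlc1, each with 1 DRG array above this level. For Gpc5, with 3 DRG arrays above it, the fold was 2.72. Of 1078 values of 65 relatives, 1017 kept their side of the threshold, 9 of which changed sign without a call in either setting (Ace, Ppp1r3d and Srr, all between -0.28 and 0.11), 49 lost and 6 gained a call, and 6 called values changed sign: Dtna (0.34) to -0.08 after quantile normalization, -0.02 before the array scaling and -0.15 with probe sets averaged, Gcsh (0.54) to -0.02 after quantile normalization, and Slc3a2 (0.36) to -0.19 and -0.01 under those scalings. The cause was not tested. Of 374 counts of related lists, 51 moved by over 1.5 times. Genes under the level in both tissues have no fold, and with 3 arrays per tissue differences within the spread were not detectable.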
